A study of Homo sapiens with 6 samples.

Results

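The genes of sterol and fatty acid synthesis were examined in TC71, an established Ewing sarcoma cell line driven by a fusion oncoprotein, after knockdown of EHD1, an ATPase of endocytic recycling. The members were chosen by symbol, and all 38 were found among the 60676 genes of the count table. All 38 also passed the filter on low counts, which 16785 genes passed. RNA-seq libraries came from TC71 cells carrying a lentiviral, doxycycline (Dox)-inducible shRNA, either a non-targeting control (shNTC+Dox, 3 libraries) or an shRNA against EHD1 (shEHD1+Dox, 3 libraries). Both groups had received 0.5 µg/ml Dox for 3 days in medium with fetal bovine serum, which carries lipoprotein cholesterol. The lines were bulk populations rather than clones, and which EHD1 shRNA the 3 knockdown libraries carried is not given in the sources used here. The comparison asks how loss of EHD1 bears on the level of these transcripts, and it cannot separate EHD1 loss from other effects of that shRNA.

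Cholesterol and fatty acids are both built from acetyl-CoA. The sterol arm runs through mevalonate and the isoprenoids to squalene, which is closed into lanosterol and trimmed to cholesterol, and the fatty acid arm runs from malonyl-CoA to palmitate, which is then elongated and desaturated. The transcription factors SREBP-1 and SREBP-2, encoded by SREBF1 and SREBF2, switch on most of these genes when membrane sterol is low, and INSIG proteins hold them in the endoplasmic reticulum through SCAP when sterol is high. The genes under SREBP control, INSIG1 among them, are known to move together with the sterol and lipid supply of a culture.

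SREBPs act on promoters together with NF-Y, which binds the CCAAT box. RefSeq promoters of GRCh38.p14, running from 250 bases before to 50 bases after the start, were found for 34 of the 38 members, with none for FDFT1, SQLE, ACAT2 and FASN. Stretches upstream of 5 genes are shown because the results below turn on MSMO1, INSIG1, SCD and SCD5, and because SREBF2 holds the longer sterol element; genes and windows were chosen after their values were seen. They are chr22:41832955-41833104, chr7:155297658-155297775, chr10:100346993-100347142 and chr4:165327474-165327666 on the plus strand and chr4:82798797-82798946 on the minus strand. Each is written 5′ to 3′ on its gene's strand, and capitals mark the sterol element and the CCAAT box, or ATTGG where the box lies on the other strand.
SREBF2: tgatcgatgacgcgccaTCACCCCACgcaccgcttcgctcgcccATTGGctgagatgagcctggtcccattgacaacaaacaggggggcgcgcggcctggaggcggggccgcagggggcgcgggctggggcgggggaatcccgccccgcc
INSIG1: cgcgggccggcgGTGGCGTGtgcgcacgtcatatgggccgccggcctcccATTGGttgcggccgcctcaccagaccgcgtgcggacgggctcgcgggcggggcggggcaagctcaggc
SCD: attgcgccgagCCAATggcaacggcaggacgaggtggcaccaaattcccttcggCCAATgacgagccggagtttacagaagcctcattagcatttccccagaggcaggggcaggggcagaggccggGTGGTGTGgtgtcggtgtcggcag
MSMO1: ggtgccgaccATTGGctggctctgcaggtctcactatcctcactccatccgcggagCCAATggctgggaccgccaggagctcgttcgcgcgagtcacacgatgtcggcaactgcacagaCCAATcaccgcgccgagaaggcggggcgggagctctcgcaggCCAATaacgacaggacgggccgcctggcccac
SCD5: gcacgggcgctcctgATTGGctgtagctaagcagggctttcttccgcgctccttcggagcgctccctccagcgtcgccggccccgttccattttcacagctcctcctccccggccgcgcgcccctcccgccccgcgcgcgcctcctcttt
The stretches of MSMO1 (193 bases) and SCD5 (150 bases) both lack either form of the sterol element. That of MSMO1 carries 4 CCAAT boxes and that of SCD5 carries 1.

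Searched on both strands, the sterol response element TCACNCCAC was found in 1 of the 34 member promoters (2.94%), that of SREBF2, and in 1.15% of all 27305 promoters in the table. The shorter CACNCCAC, which any match of the longer one contains, was found in 4 (SC5D, INSIG1, SREBF2 and SCD; 11.8%, against 5.74% of all promoters). CCAAT was found in 21 member promoters (61.8%), against 35.7% of all promoters and 36.6% of those of tested genes. The GC box GGGCGG was found in 30 (88.2%, against 44.6% of all promoters and 69% of those of tested genes) and the E-box CACGTG in 5 (14.7%, against 7.43% and 10.2%). For the shorter and longer sterol elements, the share among tested genes was 5.53% and 1.06%. These letter matches describe the windows and do not locate binding.

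Library totals ran from 22711235 to 28203023 counts in shNTC+Dox and from 24150135 to 30582187 in shEHD1+Dox. Values below are CPM, counts scaled to library size by TMM, a normalization that balances composition between libraries, and levels of different genes are compared only as CPM per kilobase of exon. All 10 Ewing sarcoma markers examined were above 3 counts in every library, with a summed level of 2660 to 2942 CPM in shNTC+Dox and 3087 to 3112 CPM in shEHD1+Dox. JAK1 alone gave 1285 to 1501 CPM and 1656 to 1749 CPM of these sums, and single markers moved both ways. CD99 was higher (log2 fold change 0.33, edgeR adjusted p = 0.0293). STEAP1 (-0.43, edgeR adjusted p = 0.00443) and ID2 (-1.30, edgeR adjusted p = 1.55e-04) were lower, and the others were not called. Of the markers of other cell types, 0 of 5 leukocyte genes and 0 of 4 endothelial genes were above 3 counts in every library, with CD3E, VWF and KDR at 0 throughout. The fibroblast list (3 of 5 genes over that floor) summed to 20.1 to 29.9 CPM in shNTC+Dox and 24.5 to 27.6 CPM in shEHD1+Dox. The epithelial list (2 of 5) summed to 27.2 to 31.6 CPM and 34.1 to 40.2 CPM, and its part in the results was not tested. In these bulk samples, fewer cells of a kind and less RNA per cell cannot be told apart.

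EHD1 (chr11:64851642-64888296, minus strand) had 713, 775 and 589 counts in the shNTC+Dox libraries and 215, 175 and 290 counts in the shEHD1+Dox libraries. The groups did not overlap. Its mean level fell from 27.2 ± 0.81 to 8.02 ± 1.18 CPM (SD, n = 3 each), which left 29.6% of the control level (log2 fold change -1.76, SE 0.12, edgeR adjusted p = 1.35e-04).

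One control library stood apart for most members. In replicate 3 of shNTC+Dox, the members had a median log2 CPM 0.48 below the mean of the other 2 control libraries (-0.48, from -1.30 for SCD to 0.32 for ELOVL1), and 33 of 38 members lay below that mean. More than 0.5 below it were 19 members (50%), against 12.5% of all genes tested. The 38 genes together took 1.02% and 1.03% of all counts in shNTC+Dox replicates 1 and 2 but 0.628% in replicate 3, and 0.978%, 0.959% and 0.996% in the 3 shEHD1+Dox libraries. The other 5 libraries thus lay between 0.959% and 1.03%, and the low value belonged to 1 control.

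The members most affected in that library came from both arms. SCD stood there at 40.6% of its mean level in shNTC+Dox replicates 1 and 2, ACSS2 at 51.4%, STARD4 at 53.3%, HMGCS1 at 54.3% and INSIG1 at 55.7%. In contrast, 5 members lay above that mean, namely PMVK, SCAP, ME1, SCD5 and ELOVL1. Of the 19 members more than 0.5 lower, 15 had a promoter entry and 11 of these held CCAAT, against 10 of the 19 others, all of which had an entry. Whether the CCAAT box bears on the low values was not tested.

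The first 2 control libraries, by comparison, were closely matched. The median absolute difference between them was 0.03 on the log2 scale over the members and 0.10 over all genes tested. The median SD of log2 CPM over members was 0.28 in shNTC+Dox and 0.06 in shEHD1+Dox, against 0.16 and 0.13 over all genes tested. The SD was larger in shNTC+Dox for 35 of 38 members (92.1%), against 58.9% of all genes. The shNTC+Dox replicate 3 library was also the shallowest, and it stood apart from the other controls on the second principal component (-38.7 against 32.8 and 29.1). On the first component it lay at -55.2, against -23.9 and -21.3 for the other controls and 31.8 to 34.8 for the shEHD1+Dox libraries. Whether depth, RNA quality or culture bears on its low values was not tested, and results that rest on it are given below with and without it.

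**Figure D1:**
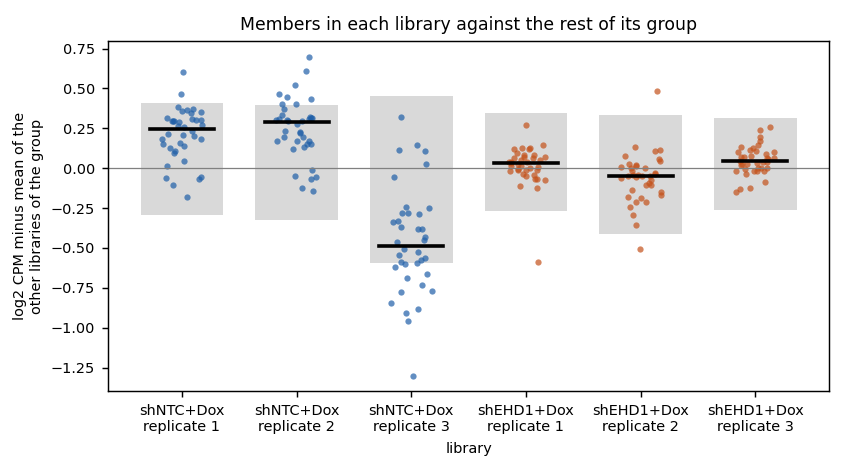
Difference of each member from the mean of the other 2 libraries of its group (log2 CPM, y axis) in each of the 6 libraries (x axis); points are members, the black line is their median and the grey box spans the 10th to 90th percentile of all tested genes. The members of shNTC+Dox replicate 3 sit around a median of -0.48, while the 3 shEHD1+Dox libraries have medians of 0.03, -0.05 and 0.04.

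**Figure D2:**
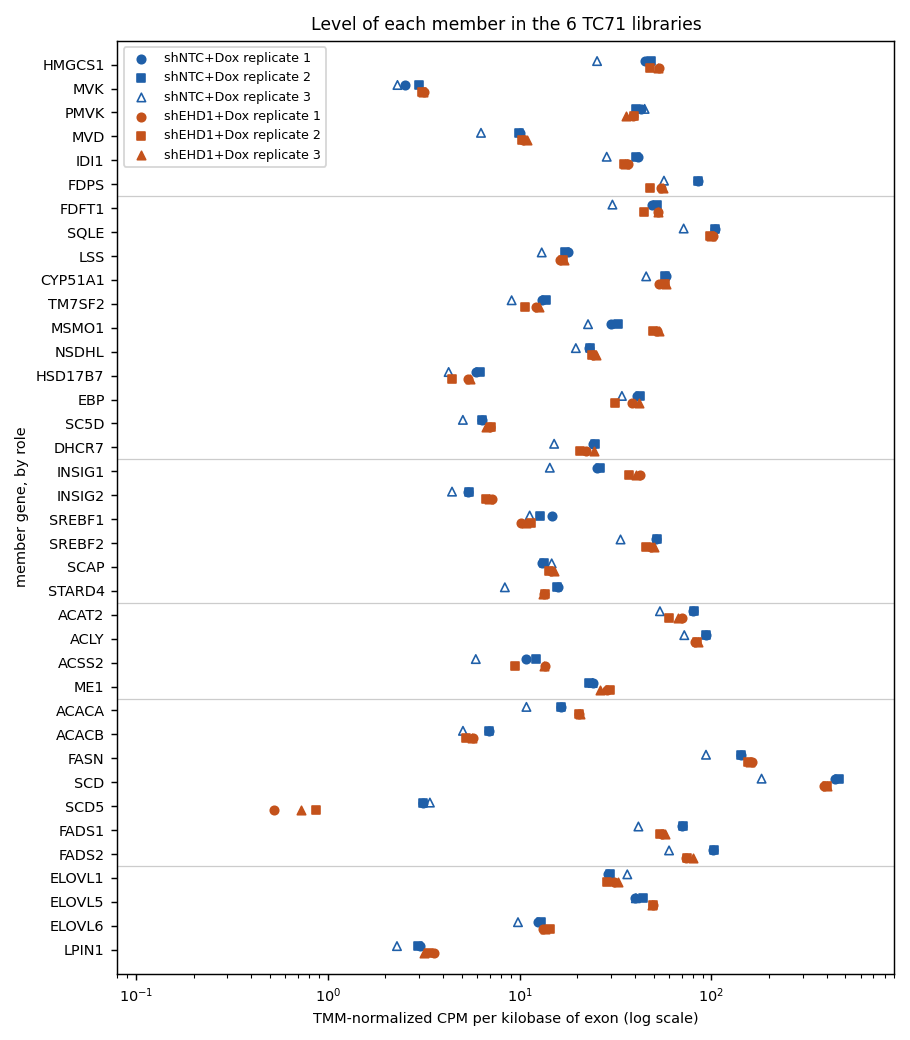
TMM-normalized CPM per kilobase of exon (log axis) of the 38 members in each library, ordered by role; open triangles are shNTC+Dox replicate 3. The open triangle lies left of the other control symbols for 33 members when set against their mean, and SCD5 shows the widest gap between the groups.

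With all 6 libraries, 6 of the 38 members passed an adjusted p of 0.05 (edgeR), a share near that of all genes. The level was higher at an adjusted p under 0.05 (edgeR) in 5 of 38 members, MSMO1, INSIG1, INSIG2, ME1 and ELOVL5, and lower in 1, SCD5. Only MSMO1 was called higher when knockdown replicate 1 or 3 was left out, and only MSMO1 and INSIG2 without shNTC+Dox replicate 1. SCD5 was lower each time. The share of all genes called is not given here for those settings, so the lost calls are not read as a trait of the members. With all libraries the 6 calls made up 15.8% of the members, against a background of 17.3% of all genes called (8.59% higher and 8.75% lower), and the share of members called was near that of all genes. Only SCD5 also passed 2-fold, where the background was 2.82%. Over the members, 24 log2 fold changes were above 0 and 14 below, with a median of 0.08 against 0.0008 over all genes. The 2 groups did not overlap for 16 members (42.1%), against a background of 39.3%; 13 of them were higher in every knockdown library (background 19.9%) and 3 lower (background 19.4%). DESeq2 called 8 members (21.1%, background 21.6%), of which 6 were higher (background 10.5%) and 2 lower (background 11.1%). A fit with the replicate number as a block called 4 (10.5%, background 10.5%), 3 higher (background 5.21%) and 1 lower (background 5.31%).

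Leaving out shNTC+Dox replicate 3 turned this balance. The calls then numbered 15 (39.5%, against a background of 21.8%), with 6 higher (against 11.4%) and 9 lower (against 10.5%), and the median moved to -0.06 with 17 members higher and 21 lower. All 6 calls made with every library were kept. The additional calls were ACACA, which was higher, and IDI1, FDPS, SREBF1, STARD4, ACAT2, ACACB, FADS1 and FADS2, which were lower. The alternative was planned, but its weight here was chosen after the values were seen.

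**Figure D3:**
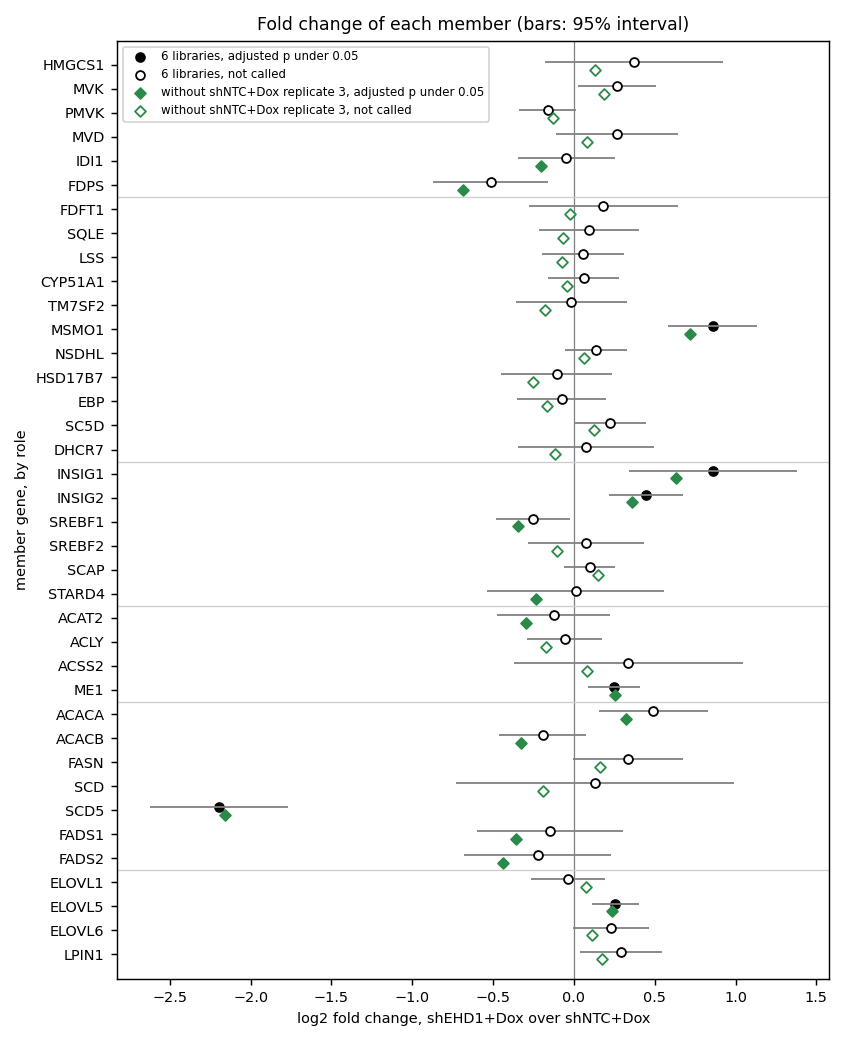
Log2 fold change of shEHD1+Dox over shNTC+Dox (x axis) for the 38 members by role, with 95% intervals from all 6 libraries and the estimate without shNTC+Dox replicate 3. Estimates without that library lie to the left for most members, and the median moves from 0.08 to -0.06.

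The mevalonate segment carries acetyl units to farnesyl diphosphate. With all libraries, 0 of its 6 members were called by edgeR (0%, against 17.3% of all genes). At an unadjusted edgeR p under 0.05 were 2 (MVK and FDPS), a threshold for which the share of all genes is not given here. DESeq2 called 1 (FDPS), where the background was 21.6%. HMGCS1, which makes HMG-CoA, had 298, 321 and 168 CPM in shNTC+Dox and 352, 318 and 348 CPM in shEHD1+Dox. The groups overlapped only because replicate 2 of the control lay just above the lowest knockdown library (log2 fold change 0.37, SE 0.23, edgeR adjusted p = 0.321). Without control replicate 3 its estimate was 0.13. The exons of HMGCS1 share 2497 bases with annotated exons of other genes, so that some of its reads cannot be assigned in these unstranded libraries.

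FDPS, the farnesyl diphosphate synthase, also missed the threshold. Its values were 315, 317 and 210.4 CPM in shNTC+Dox and 204, 178 and 208 CPM in shEHD1+Dox, and the groups did not overlap. Its log2 fold change of -0.52 (SE 0.15) had an edgeR adjusted p = 0.0562 and was -0.69 without control replicate 3 (edgeR adjusted p = 2.48e-04). It shares 693 exon bases with other genes, RUSC1-AS1 having the largest overlap, and has processed pseudogene copies in the genome. Its counts are uncertain to that extent.

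The other 4 members of the segment had log2 fold changes between -0.16 and 0.27. IDI1, the isomerase that sets isopentenyl against dimethylallyl diphosphate, had 179, 173 and 122 CPM in shNTC+Dox and 158, 149.7 and 152 CPM in shEHD1+Dox. Each knockdown library lay below 2 controls and above the third (log2 fold change -0.05, edgeR adjusted p = 0.839, against -0.20 and 0.031 without control replicate 3). The kinases MVK and PMVK phosphorylate mevalonate and its phosphate, and MVD decarboxylates the product. MVK stood at 22.8, 27.0 and 20.8 CPM in the controls and 28.8, 27.9 and 28.3 CPM after knockdown (edgeR adjusted p = 0.119).

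From squalene to cholesterol, 1 of 11 members was called (9.09%, against 17.3% of all genes). This was the methylsterol monooxygenase MSMO1 (chr4:165327667-165343164, plus strand), which begins removal of the methyl groups at carbon 4 of the ring. MSMO1 had 85.6, 93.1 and 64.9 CPM in shNTC+Dox and 149, 141 and 152 CPM in shEHD1+Dox. Every knockdown library lay far above every control. The mean rose from 81.2 ± 14.6 to 147 ± 5.66 CPM (SD, n = 3 each), a log2 change of 0.86 (SE 0.12, edgeR adjusted p = 0.00271). Without control replicate 3 the change was 0.72 (edgeR adjusted p = 1.13e-04), and the call was kept under all 12 alternatives.

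Members that act near MSMO1 in the pathway showed smaller differences. CYP51A1, the lanosterol demethylase that acts before it, had 243, 239 and 191 CPM in shNTC+Dox and 222, 238 and 241 CPM in shEHD1+Dox (log2 fold change 0.06, 95% interval -0.16 to 0.28). NSDHL, the dehydrogenase that acts after it, had 46.2, 46.7 and 39.2 CPM against 48.1, 47.4 and 50.0 CPM (log2 fold change 0.14, 95% interval -0.05 to 0.33). Both intervals lie below the interval of MSMO1, which ran from 0.58 to 1.14. So does that of TM7SF2, another member of the segment (log2 fold change -0.02, 95% interval -0.36 to 0.33). CYP51A1 shares 3090 exon bases with annotated exons of other genes.

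SQLE, the squalene monooxygenase and a rate-controlling step, had 449, 452 and 309 CPM in shNTC+Dox and 439.7, 422 and 426 CPM in shEHD1+Dox (log2 fold change 0.09, 95% interval -0.22 to 0.40). The knockdown values fell between control replicate 3 and the other controls, as they did for LSS, the lanosterol synthase. FDFT1, the squalene synthase, and DHCR7, the last reductase of the pathway, had wider control spreads, of 155 to 266 CPM and 104 to 170.1 CPM. Over the 10 members not called in this segment, the log2 fold changes ran from -0.11 for HSD17B7, which has a close pseudogene copy, to 0.22 for SC5D. Without control replicate 3, 8 of the 11 members of the segment were lower and 3 higher.

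Among the regulators, the genes of both INSIG proteins rose while those of the SREBPs and SCAP were not called. Of the 6 members of this list, which also holds STARD4, 2 were called (33.3%, against 17.3% of all genes). INSIG1 (chr7:155297776-155310235, plus strand) had 92.5, 96.0 and 52.5 CPM in shNTC+Dox and 154, 136 and 147 CPM in shEHD1+Dox. The groups were well separated, but the controls were spread by replicate 3. Its mean rose from 80.3 ± 24.2 to 146 ± 9.06 CPM (SD, n = 3 each), a log2 change of 0.86 (SE 0.22, edgeR adjusted p = 0.0404). Without control replicate 3 it was 0.63 (edgeR adjusted p = 3.03e-04), and the call was kept under 7 of 12 alternatives.

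INSIG2 (chr2:118088452-118110997, plus strand), a second retention protein whose main transcript is known to be less dependent on SREBP, had 21.2, 21.4 and 17.6 CPM in shNTC+Dox and 28.2, 26.4 and 27.4 CPM in shEHD1+Dox. It rose from 20.1 ± 2.17 to 27.3 ± 0.915 CPM (SD, n = 3 each), a log2 change of 0.45 (SE 0.10, edgeR adjusted p = 0.019). All knockdown libraries were above all controls for it too. The call was kept under 10 of 12 alternatives.

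SREBF1, the factor of fatty acid synthesis, had 121, 105 and 93.0 CPM in shNTC+Dox and 84.2, 94.9 and 89.0 CPM in shEHD1+Dox. One knockdown library lay above the lowest control (log2 fold change -0.25, SE 0.10, edgeR adjusted p = 0.117, against -0.34 and 0.0126 without control replicate 3). SREBF2, the factor of sterol synthesis, had 417, 417 and 271 CPM against 389, 369 and 406 CPM, with all knockdown libraries between control replicate 3 and the other controls. Its log2 fold change was 0.08 (SE 0.16, 95% interval -0.28 to 0.44, edgeR adjusted p = 0.776), or -0.10 without control replicate 3 (edgeR adjusted p = 0.271).

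SCAP, the sterol-sensing escort of the SREBPs, was even across libraries at 82.3, 84.5 and 92.5 CPM in shNTC+Dox and 92.0, 90.05 and 95.3 CPM in shEHD1+Dox (log2 fold change 0.10, 95% interval -0.06 to 0.26). STARD4, a cytosolic sterol carrier, had 89.8, 89.0 and 47.6 CPM against 76.1, 76.7 and 75.6 CPM. With a log2 fold change of 0.01 over all libraries and -0.23 without control replicate 3 (edgeR adjusted p = 0.0168), STARD4 was one of the members whose direction rested on that library.

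Of the 4 members that supply acetyl-CoA and NADPH, 1 was called, ME1, which rose (25%, against 17.3% of all genes). ME1 (chr6:83210402-83431051, minus strand), the cytosolic malic enzyme that yields NADPH, had 81.0, 77.0 and 80.3 CPM in shNTC+Dox and 95.9, 99.2 and 88.0 CPM in shEHD1+Dox. The difference was small, from 79.4 ± 2.1 to 94.4 ± 5.79 CPM (SD, n = 3 each), but control replicate 3 sat among the other controls (log2 fold change 0.25, SE 0.07, edgeR adjusted p = 0.0412). The call was kept under 6 of 12 alternatives. ACLY, which splits citrate, was at 488, 491 and 376 CPM in the controls and 426, 436 and 441 CPM after knockdown, while ACSS2, which activates acetate, ran from 31.03 to 64.0 CPM and from 49.9 to 71.4 CPM.

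ACAT2 makes acetoacetyl-CoA. It had 211, 214 and 142 CPM in shNTC+Dox and 185, 158 and 176 CPM in shEHD1+Dox, with -0.13 on the log2 scale (edgeR adjusted p = 0.609), which became -0.29 without control replicate 3 (edgeR adjusted p = 0.0161). Its exons overlap 587 bases of TCP1.

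In fatty acid synthesis and desaturation, 1 of 7 members was called (14.3%, against 17.3% of all genes). The 2 stearoyl-CoA desaturase genes of this list differed in level and in change. SCD, the main desaturase that places the first double bond in stearate and palmitate, was the most abundant member per length, with a control mean of 361 ± 155 CPM per kilobase (SD, n = 3). Its values were 2306, 2414 and 958 CPM in shNTC+Dox and 2024, 2099.9 and 2093 CPM in shEHD1+Dox. Knockdown libraries were tightly grouped inside a wide control range (log2 fold change 0.13, 95% interval -0.73 to 0.99, edgeR adjusted p = 0.831). Without control replicate 3 the estimate was -0.19 (edgeR adjusted p = 0.0716).

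SCD5 (chr4:82629539-82798796, minus strand), a second desaturase known mainly from brain and pancreas, was among the 3 members of lowest level per length, at 3.23 ± 0.151 CPM per kilobase (SD, n = 3) in the controls. It had 350, 369 and 322 counts in shNTC+Dox and 63, 90 and 95 counts in shEHD1+Dox, or 13.3, 13.3 and 14.4 CPM against 2.21, 3.68 and 3.07 CPM. The controls were nearly equal, replicate 3 included, and each knockdown library was far below them. The mean fell from 13.7 ± 0.638 to 2.99 ± 0.737 CPM (SD, n = 3 each), 21.8% of the control level (log2 fold change -2.20, SE 0.19, edgeR adjusted p = 2.69e-04). The change was -2.16 without control replicate 3, and the call was kept under all 12 alternatives.

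FASN, the synthase that assembles palmitate, had 1327, 1324 and 874 CPM in shNTC+Dox and 1512, 1455 and 1485 CPM in shEHD1+Dox. The groups did not overlap, but the difference did not pass the test (log2 fold change 0.34, SE 0.15, edgeR adjusted p = 0.159). ACACA, the cytosolic acetyl-CoA carboxylase, had 213, 214 and 141 CPM against 265, 265 and 270.1 CPM (log2 fold change 0.49, SE 0.15, edgeR adjusted p = 0.0544, and 0.32 with 0.00322 without control replicate 3). ACACB, the isoform at mitochondria, had 100.3, 101 and 73.6 CPM against 82.6, 76.4 and 81.5 CPM. Whereas ACACA was higher without control replicate 3, ACACB was lower there (log2 fold change -0.33, edgeR adjusted p = 0.0048).

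The front-end desaturases FADS1 and FADS2, neighbours on chromosome 11 that work on polyunsaturated fatty acids, gave like patterns. FADS1 had 720.2, 732 and 426 CPM in shNTC+Dox and 564, 549 and 584 CPM in shEHD1+Dox. FADS2 had 1078, 1093 and 635 CPM in shNTC+Dox and 775, 785 and 842 CPM in shEHD1+Dox. For both genes the knockdown libraries lay below 2 controls and above the third. Their log2 fold changes of -0.15 and -0.22 became -0.36 and -0.44 without control replicate 3 (edgeR adjusted p = 0.00273 and 0.00141). By the annotation, FADS1 shares 570 and FADS2 539 exon bases with other genes, each having its largest overlap with the other. Reads there cannot be told apart.

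Of the 4 members for elongation and the glycerolipid step, 1 was called, ELOVL5, which rose (25%, against 17.3% of all genes). ELOVL5 (chr6:53267398-53349179, minus strand), which extends polyunsaturated acyl-CoAs, had 153, 167 and 154 CPM in shNTC+Dox and 190.2, 189 and 188 CPM in shEHD1+Dox. Its knockdown values were almost equal and lay above all controls, with means of 158 ± 7.85 and 189 ± 1.33 CPM (SD, n = 3 each). The log2 fold change was 0.26 (SE 0.06, edgeR adjusted p = 0.0259), and the call was kept under 8 of 12 alternatives.

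ELOVL6, which extends palmitate to stearate, had 90.9, 93.9 and 71.4 CPM in shNTC+Dox and 96.5, 105 and 98.4 CPM in shEHD1+Dox (edgeR adjusted p = 0.169). ELOVL1, which makes very long saturated chains, had 72.5, 73.8 and 91.3 CPM against 78.3, 71.3 and 81.8 CPM and was the member most raised in control replicate 3. LPIN1, a phosphatidate phosphatase that also acts on nuclear lipid control, had 35.8, 35.2 and 27.2 CPM against 42.4, 40.0 and 37.7 CPM (edgeR adjusted p = 0.111).

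**Figure D4:**
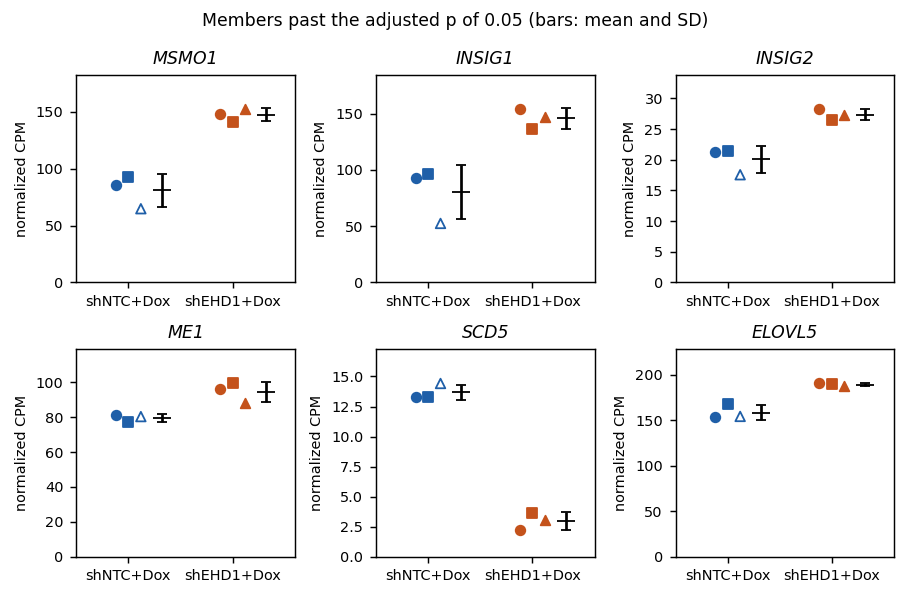
Normalized CPM of the 6 members past an adjusted p of 0.05 in each library, with bars for the mean and SD of 3 libraries; open triangles are shNTC+Dox replicate 3. That replicate is the lowest control for MSMO1, INSIG1 and INSIG2 and sits with the other controls for ME1, ELOVL5 and SCD5, where SCD5 drops from 13.7 to 2.99 CPM.

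Beyond the members, 87 further genes of these pathways were followed in 7 lists, and 79 passed the filter on low counts. Of these, 10 were higher and 6 lower at an adjusted p under 0.05 (20.3%, against the background of 17.3%), with a median log2 fold change of -0.01. In glycerolipid assembly, 0 of 7 tested genes were called by edgeR (background 17.3%) and 0 by DESeq2 (background 21.6%). At an unadjusted edgeR p under 0.05 there were 0 as well, with the share of all genes not given here. Over all 79 tested genes, leaving out control replicate 3 gave 13 higher (background 11.4%) and 7 lower (background 10.5%). The replicate block gave 4 higher (background 5.21%) and 6 lower (background 5.31%). Leaving out shEHD1+Dox replicate 3 gave 2 higher and 6 lower, and the share over all genes is not given here for that setting. Of the genes named below, UBE2G2, DOLK, PDSS1, ELOVL2, FADS3, ACSL1 and NR1H3 were called under all 12 alternatives.

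Of the other elongation and desaturation enzymes, 2 of 9 tested were called, both lower (22.2%, against 17.3% of all genes in either direction). ELOVL2, an elongase of long polyunsaturated chains, fell from 3.38, 4.37 and 3.40 CPM to 1.55, 1.55 and 1.68 CPM (log2 fold change -1.22, edgeR adjusted p = 0.00564), and FADS3, a desaturase relative beside FADS2, fell by 0.49 on the log2 scale (edgeR adjusted p = 0.0181). Of the 14 tested genes for precursor supply and acyl-CoA synthetases, 2 were called, both higher (14.3%, against the same 17.3%). ACSL1 had 22.5, 23.7 and 20.5 CPM in shNTC+Dox and 38.1, 38.3 and 35.8 CPM in shEHD1+Dox (log2 fold change 0.75, edgeR adjusted p = 9.60e-04), and ACSL4, which prefers arachidonate, was higher by 0.44 on the log2 scale (edgeR adjusted p = 0.0398, called under 8 of 12 alternatives).

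In the branch that makes dolichol, ubiquinone and prenyl groups, 2 of 15 genes were higher and 3 lower (33.3% called, against 17.3% of all genes). The falls included DOLK, the dolichol kinase (log2 fold change -0.70, edgeR adjusted p = 0.00684), and PDSS1, which builds the ubiquinone side chain (-0.59, edgeR adjusted p = 0.00442). Of the 12 genes of sterol sensing and SREBP processing, 2 were higher and 1 lower (25%, against 17.3%). These included UBE2G2, a ubiquitin-conjugating enzyme of sterol-regulated degradation (log2 fold change -0.43, edgeR adjusted p = 0.00443), and ERLIN1, an endoplasmic reticulum scaffold protein (0.25, edgeR adjusted p = 0.035, called under 6 of 12 alternatives and not with the replicate block, where the adjusted p was 0.0931).

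Among 10 tested genes of sterol export and esterification, 2 were higher (20%, against 17.3% of all genes). NR1H3, which encodes the oxysterol receptor LXR alpha, had 7.07, 7.04 and 5.37 CPM in shNTC+Dox and 12.01, 10.5 and 14.4 CPM in shEHD1+Dox (log2 fold change 0.92, edgeR adjusted p = 0.00771). OSBP, an oxysterol-binding protein of membrane contact sites, was higher by 0.40 on the log2 scale (edgeR adjusted p = 0.0139, called under 10 of 12 alternatives). Of the 12 genes that assist the post-squalene steps, 2 were higher (16.7%), among them CYB5R3, a reductase that passes electrons to those enzymes (log2 fold change 0.23, edgeR adjusted p = 0.0351, called under 7 of 12 alternatives and not with the replicate block, where the adjusted p was 0.0816).

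**Figure D5:**
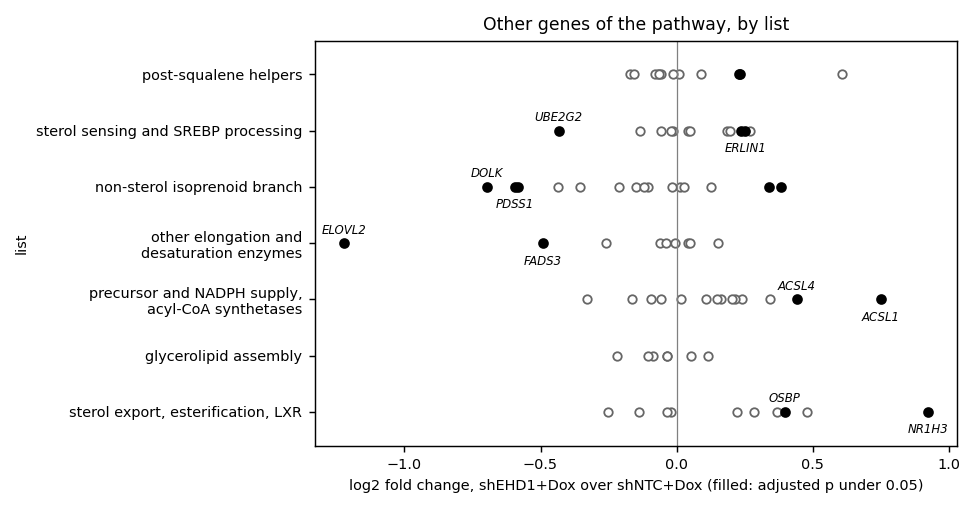
Log2 fold change of shEHD1+Dox over shNTC+Dox (x axis) for the 79 tested further genes in 7 lists; each circle is a gene and filled circles passed an adjusted p of 0.05. The filled circles lie on both sides of 0, from -1.22 for ELOVL2 to 0.92 for NR1H3.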

How the data were processed

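Poly(A) RNA of 6 TC71 libraries was sequenced without strand information. The authors deposited whole-number gene counts without normalization. Their methods name hisat2 and StringTie on hg38, whereas the submitters' processing notes name STAR 2.7.3a and DESeq2, so how reads became counts is not settled here. Here, edgeR 4.0.16 (R 4.3.3; TMM scaling, robust quasi-likelihood) was run on every gene that reached 10 counts in 3 or more libraries (16785 genes), and p-values were adjusted by Benjamini-Hochberg. The prior count of log2 CPM was 2. An exact permutation test (two-sided) of 3 against 3 cannot go below p = 0.1 and was computed per member. The code was checked on simulated data. Gene models were GENCODE v44 on GRCh38. The members and lists were chosen with earlier results of these data known. Given in full were EHD1, called members, SREBF1, SREBF2, INSIG1 and INSIG2, and the 2 largest called changes of each other list. The other members and other called genes were left to counts and ranges unless named for their role, and some genes that the rule would name are not reported here. Groups and replicate numbers came from the labels. Same-numbered libraries did not deviate together, so no block was used. Nothing states that replicates were separate cultures, so p-values measure the spread between these libraries, which may be technical. Alternatives were DESeq2 1.42.0 and its size factors, other filters, no robust step, a replicate block and leaving out each library.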

Additional observations from a re-analysis of the deposited data

How the results depend on the processing

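All 12 alternatives kept the EHD1 fall (leaving out 1 library, -1.88 to -1.68) and the calls of MSMO1 and SCD5. Leaving out 1 library gave 1 to 6 members higher, 1 to 9 lower and 1 to 2 past 2-fold, with a member median of -0.06 to 0.18, and 2 to 13 further pathway genes higher and 6 to 7 lower. The share of all genes called also moved between settings, so these counts are not a trait of the members alone. It was 17.3% with all libraries, 21.8% without shNTC+Dox replicate 3, 21.6% under DESeq2 and 10.5% with the replicate block. It is not given here for the other settings, so their counts stand without a background. The 9 lower members and the negative median came from leaving out shNTC+Dox replicate 3, and 1 higher member from leaving out shEHD1+Dox replicate 1 or 3. Without shNTC+Dox replicate 1, 2 were higher. INSIG1 was lost without shNTC+Dox replicate 1 or any shEHD1+Dox replicate and with no filter on low counts (adjusted p = 0.0984). Members lower numbered 2 under DESeq2 and under a filter of 10 counts in every library, where FDPS joined SCD5. DESeq2 also called 10 further pathway genes lower (background 11.1%). Replicate numbers correlated at 0.072, -0.059 and -0.045 and do not pair the libraries; with the replicate block, 3 members were higher (ME1 and ELOVL5 were not called), 4 further pathway genes were higher, and TM7SF2 turned from -0.02 to 0.0011.

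The log2 fold change of 13 uncalled members changed sign when 1 library was left out. Those ranges were -0.20 to 0.0495 for IDI1, -0.0252 to 0.32 for FDFT1, -0.0705 to 0.18 for SQLE, -0.0752 to 0.14 for LSS, -0.0458 to 0.12 for CYP51A1, -0.18 to 0.0902 for TM7SF2, -0.16 to 0.0356 for EBP, -0.12 to 0.19 for DHCR7, -0.10 to 0.17 for SREBF2, -0.23 to 0.15 for STARD4, -0.17 to 0.0053 for ACLY, -0.19 to 0.34 for SCD and -0.10 to 0.0755 for ELOVL1. The direction of these members is not settled by 3 libraries a group. The spread was larger in shNTC+Dox for each of them except EBP, whose sign turned without shEHD1+Dox replicate 2. Depth did not limit the count of members tested, since each passed the filter.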
